A study of Mus musculus with 4 samples.

Results

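The nuclei described here were the microglia and perivascular macrophage nuclei in single-nucleus RNA-seq of mouse cortex and hippocampus. Among 36094 nuclei with more than 600 genes detected and under 5% of UMIs (counted RNA molecules) on mitochondrial genes, 2148 (5.95%) met the rule. A member had at least 1 UMI of 3 or more of 8 genes (Inpp5d, Cx3cr1, Csf1r, P2ry12, Siglech, Ikzf1, Dock8 and Runx1), at most 1 UMI of Slc17a7, Gad1 and Gad2 together, and no UMI of Mog or Mag. Measured values therefore chose the members, and the levels of these 13 genes are given only as a description. The 4 libraries came from 4 mice aged 5 weeks, and the nuclei had been passed through a fluorescence-activated sorter. Of these mice, 2 were labelled Sel1L flox/flox (Sel1L fl/fl here) and 2 were labelled Sel1L Syn-Cre (Sel1L SynCre here). The floxed Sel1L allele was common to both labels, and Cre was placed under the Synapsin I promoter, which is active in neurons, so that microglia were not the cells in which the deletion was intended. SEL1L is the partner of the ubiquitin ligase HRD1 in the degradation of misfolded proteins of the endoplasmic reticulum (ER). Members numbered 775 in fl/fl 1, 571 in fl/fl 2, 471 in SynCre 1 and 331 in SynCre 2, the number being the replicate. Their UMIs summed to 1823555, 1259606, 1112191 and 745409 in that order, the order in which every series of 4 values is given below. The median member had 1888 UMIs and 1302 genes, against a median of 8398 UMIs in the other kept nuclei. Members shared 1 cell barcode between libraries.

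Microglia are the resident macrophages of the brain parenchyma. They depend on signalling through the CSF1 receptor and on TGF-beta, and they carry sensors such as P2RY12 and CX3CR1 with which they survey their surroundings. Perivascular and other border macrophages lie along vessels and in the meninges and are known by Mrc1, F13a1, Cd163 and Lyve1. Both cell types carry the glucocorticoid receptor, Nr3c1, which switches on genes such as Fkbp5 and Tsc22d3 when adrenal steroids rise.

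The label was checked against 12 microglial genes that the rule did not use. Gpr34, a lysophospholipid receptor, had 639, 826, 699 and 570.2 CPM (UMI counts scaled to a common total of UMIs) in members, and 5.39, 6.82, 5.52 and 4.68 CPM in the other kept nuclei. Tmem119, a surface marker of parenchymal microglia, had 97.1, 121, 119 and 152 CPM in members and below 1 CPM in the other nuclei of each library. For 11 of the 12 genes the level in members was at least 43.7 times that in the other nuclei in every library. The exception was Cst3, which astrocytes also express, at 6.65 times or more. The labelled cell type was thus present in all 4 libraries. Of the markers of lymphocytes and blood monocytes, Ly6c2, Cd3g, Cd8a and Pax5 had no UMI in members, and Ccr2, a monocyte receptor, had 7.13, 2.38, 6.29 and 14.8 CPM. Others were present, with Bcl11b, a T cell factor that neurons also express, at 28.5, 29.4, 20.7 and 13.4 CPM and Itga4, an integrin, at 20.3, 9.53, 26.1 and 24.1 CPM. Bank1, listed as a B cell gene, carried 87.2% of the UMIs of the lymphocyte list and stood at 304, 322, 290 and 248 CPM in members.

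**Figure D1:**
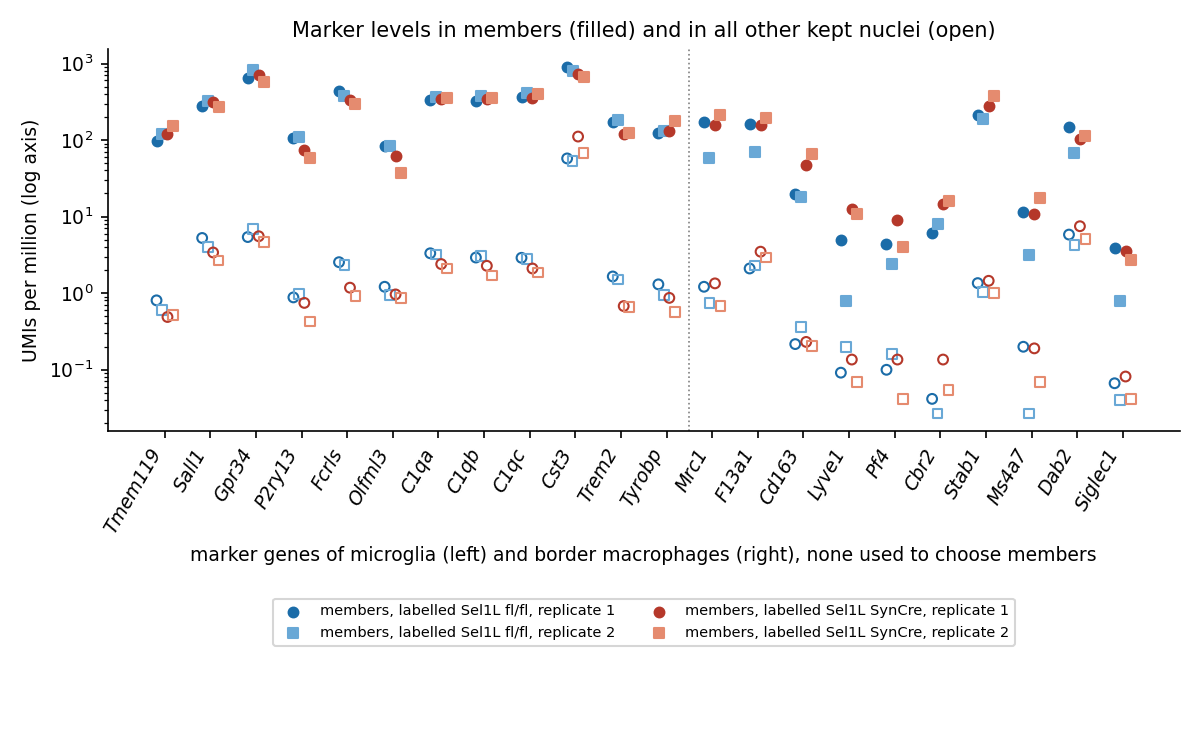
Levels of 12 microglial and 10 border macrophage genes, in CPM on a log axis, in members (filled symbols) and in all other kept nuclei (open symbols) of each library (colour and shape). Every filled symbol lies above the open symbol of the same library, and Gpr34 stands at 570.2 to 826 in members and 4.68 to 6.82 elsewhere.

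At the edge of the rule, 69 members had exactly 3 of the 8 genes, and 75.4% of them had a UMI of any of 7 microglial genes outside the rule (Tmem119, C1qa, C1qb, C1qc, Gpr34, P2ry13 and Fcrls). Just outside it, 271 nuclei had 2 of the 8 genes, a median of 7223 UMIs, and a UMI of those outside genes in 20.7%. Of the members, 542 had all 8 genes. The exclusions took out nuclei at unequal rates between libraries. Of nuclei with 3 or more of the 8 genes, 13.7%, 10.9%, 4.22% and 4.87% were left out for a UMI of Mog or Mag. The corresponding shares left out for neuronal UMIs were 15.03%, 9.17%, 10.1% and 15.6%.

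Clustering of the members without alignment of the libraries gave 7 clusters, in which fl/fl 1 stood apart. Cluster 1 held 669 of the 775 fl/fl 1 members (86.3%) and 20, 16 and 7 members of the other libraries, while clusters 2 and 3 held most members of the other 3. Its leading genes included Reln, Ccdc62 and the Y-linked Uty and Ddx3y, and the leading genes of clusters 2 and 3 included Xist. Ddx3y UMIs were found in fl/fl 1 and SynCre 1 (211 and 129) and not in fl/fl 2 and SynCre 2, whose members had 3214 and 1810 Xist UMIs. Each label thus held a male and a female library. Cluster 5, with 78 members of which 67 met the border macrophage cut below, was led by F13a1, Mrc1 and Dab2 and was border macrophage-like. Cluster 7, with 25 members, was led by interferon-induced genes (Ifi44, Usp18 and Oasl2) and held 0, 5, 18 and 2 members of the libraries. Clusters 4 and 6 were led by genes of other cells. The 90 members of cluster 4 had a median of 8486.5 UMIs with Dab1, Lhfpl3 and Csmd1 in the lead, and the 26 of cluster 6 had 4480.5 UMIs with Gpc5, Slc1a2 and Flt1. Scrublet, a caller of doublets (droplets with more than 1 nucleus), placed 80 and 21 of them among its highest scores. Such high scores were given to 105 members in all (42, 23, 33 and 7), and these carried 19.4%, 15.2%, 20.8% and 7.90% of the members' UMIs. In summed counts it was SynCre 2, the library with the fewest members, that lay farthest out, with 46 of 8169 genes more than 2-fold below all other libraries and 7 above, against 3 below and 6 above in fl/fl 1. The clusters were made from 1500 variable genes picked from among all genes, and their resolution was chosen after the data were seen.

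The deleted gene did not follow the labels in these nuclei. Sel1l had 116, 104, 105 and 121 CPM in members, after scaling by TMM (trimmed mean of M values), as are all CPM beside a fold change below. Its log2 fold change, SynCre over fl/fl, was 0.03 ± 0.17 (SE), with an adjusted p of 0.981. In neuron-marker nuclei, those with 2 or more UMIs of Slc17a7, Gad1 and Gad2, Sel1l had 98.0, 88.5, 154 and 125 CPM, higher rather than lower in the libraries labelled SynCre, with an adjusted p of 0.113. Reads of a floxed gene can remain after recombination where they lie outside the deleted part, so this 3′ count does not test the deletion. Cre RNA had 2, 0, 0 and 1 UMIs in members. In neuron-marker nuclei it had 362, 0, 189 and 211 UMIs, so that a library labelled fl/fl also held it. For this reason groups are named below as labelled.

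Members made up 6.27%, 6.77%, 5.84% and 4.58% of kept nuclei. Exact 95% binomial intervals, which cover counting error only here and below, were 5.85 to 6.71%, 6.24 to 7.33%, 5.34 to 6.37% and 4.11 to 5.08%. Both libraries labelled SynCre lay below both labelled fl/fl, with means of 5.21% ± 0.893 and 6.52% ± 0.353 (SD, n = 2 each). The exact two-sided permutation test gave p = 0.33, the smallest value that 2 against 2 libraries can give. A share depends on the other nuclei in the library, so fewer microglia and more of other nuclei cannot be told apart. When 2 of the 8 genes sufficed, the shares were 6.71%, 7.59%, 6.86% and 5.48%, so that the labels overlapped (difference -0.984 percentage points, exact permutation p = 0.67). Without the neuronal and oligodendrocyte exclusions, an alternative chosen after the data were seen, the shares were 8.34%, 8.40%, 6.76% and 5.68%. With every nucleus thinned to 2000 UMIs, which left out the shallower nuclei, the shares were 3.20%, 3.08%, 3.06% and 2.38%, and the difference fell to -0.423 percentage points. Thinned to 1000 UMIs, they were 6.09%, 6.64%, 5.40% and 4.36%, a difference of -1.48 percentage points. Of nuclei with fewer than 2 neuron marker UMIs the difference was -2.00. Of nuclei free of neuronal and oligodendrocyte UMIs, an alternative also chosen after the data were seen, it was -8.20.

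**Figure D2:**
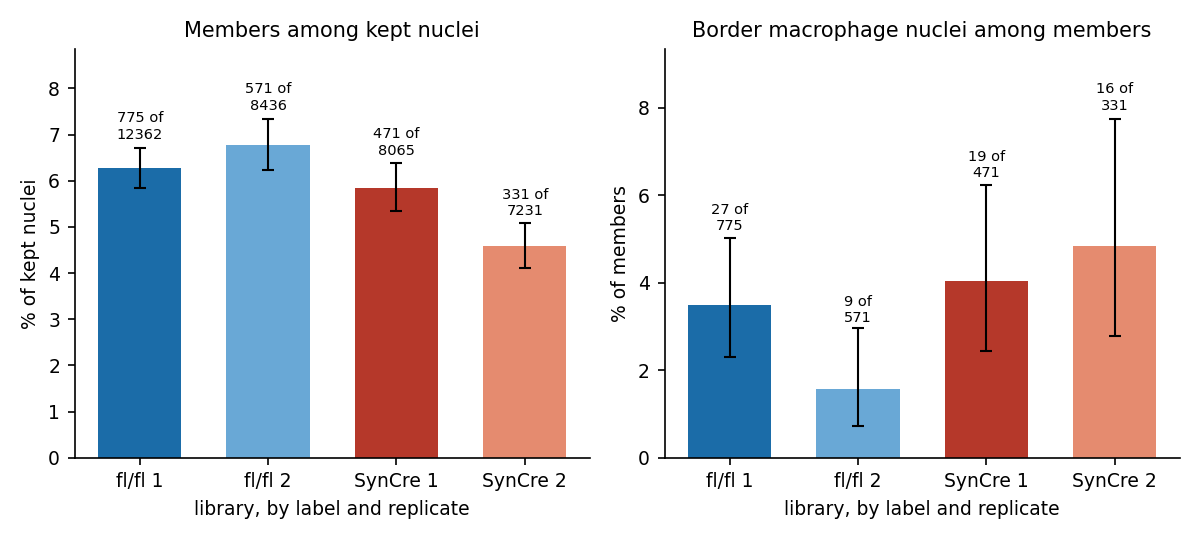
Left, members as a percentage of kept nuclei in each library. Right, border macrophage nuclei as a percentage of members. Bars are single libraries, error bars are exact 95% binomial intervals, and the counts stand above them; the libraries labelled SynCre reach 5.84% and 4.58% on the left and 4.03% and 4.83% on the right.

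Border macrophages were taken as members with a UMI of 2 or more of Mrc1 (the mannose receptor), F13a1 (coagulation factor XIII A chain), Cd163 (the haemoglobin scavenger receptor), Lyve1, Pf4 and Cbr2. There were 71 such nuclei (3.31% of members), of which 59 had 3 or more of the 6 genes. A further 72 members had exactly 1 and 2005 had none. The share was 3.48% (27 of 775), 1.58% (9 of 571), 4.03% (19 of 471) and 4.83% (16 of 331). It was thus higher in both libraries labelled SynCre, 4.43% ± 0.566 against 2.53% ± 1.35 (SD, n = 2 each), with an exact permutation p of 0.33. The binomial intervals of fl/fl 1 (2.31 to 5.03%) and SynCre 1 (2.45 to 6.23%) overlapped in most of their length, and without fl/fl 2 the difference was 0.95 percentage points against 1.90 in all 4. With members thinned to 2000 UMIs the labels overlapped. Thinned to 1000 UMIs, the shares were 3.26%, 1.61%, 3.47% and 4.86%, a difference of 1.73 percentage points, and the labels did not overlap. The cut chose these nuclei, so their 6 genes are not results.

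Among genes outside the cut, the border macrophage nuclei were marked by Dab2, an endocytic adaptor, with 2708 CPM against 24.1 CPM in the other members, and by Colec12, a scavenger receptor, with 1136 against 8.16 CPM. Ms4a4a had 67 UMIs in these 71 nuclei and none in the other members. Apoe, the lipid carrier, had 4133 against 256 CPM, and this held in each library, with 3940, 4583, 4201 and 4176 CPM in border macrophage nuclei and 219, 182, 427 and 223 CPM in the rest. Tmem119, Sall1 and Gpr34 were lower there and C1qa was higher. Tmem119 had 6.14 against 120 CPM (1 UMI in all), and Sall1, a microglial transcription factor, 36.8 against 303 CPM. Gpr34 had 172 against 707 CPM and C1qa 565 against 339 CPM, higher in border macrophage nuclei in each library. Csf1r was similar, at 626 and 752 CPM. These values are a description, since the nuclei were chosen by related genes.

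The main comparison asked which genes differed in members between the labels, with counts summed per library and edgeR's quasi-likelihood test over 11476 genes. In all, 8 genes passed the adjusted threshold of 0.05 (0.0697% of those tested; 0.0349% in each direction), and 979 had an unadjusted p under 0.05. The 4 that rose were Fkbp5, Gm22146, Sult1a1 and Gm12248, and the 4 that fell included Il6st, Cntn5 and Pdzrn4, each with an adjusted p of 0.0338. The count hung on single libraries: it was 0 without fl/fl 1 (687 genes at an unadjusted p under 0.05), 7 without fl/fl 2, 412 without SynCre 1 and 131 without SynCre 2. It was also 0 when members needed 4 of the 8 genes (777 at an unadjusted p under 0.05). Most genes called without fl/fl 2 were not among those called with all libraries. Fkbp5 and Gm22146 missed the threshold in 2 of 18 alternatives, Il6st and Cntn5 in 5, Sult1a1 in 6, Pdzrn4 in 8, and Gm12248 in 7 of the 15 that gave it an adjusted p. With the replicate number as a block, which is also a block on sex since each number was 1 sex in both labels, 160 genes passed (50 higher and 110 lower), all 8 among them. The block left 1 residual degree of freedom, as did each fit with a library left out. In these fits the spread between libraries was thus poorly measured, and they are among the alternatives counted here and below.

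Fkbp5, the cochaperone that lowers the affinity of the glucocorticoid receptor for its ligand, had 169, 290, 775 and 1136 CPM, on 296, 355, 845 and 853 UMIs. Both libraries labelled SynCre lay above both labelled fl/fl, 2.06 ± 0.26 (SE) on the log2 scale. The log2 fold change was 1.72 to 2.49 with a library left out. After thinning to 1000 UMIs, 14.9%, 24.6%, 54.2% and 62.6% of members had a Fkbp5 UMI, against 28.8%, 41.0%, 76.9% and 85.2% before thinning. Members with 3 or more Fkbp5 UMIs, before thinning, made up 1.42%, 5.60%, 28.9% and 42.6%. In neuron-marker nuclei, which express the gene at a lower level, the thinned shares were 3.95%, 3.45%, 5.69% and 7.63%, at median depths of 12097, 11341, 11510 and 11724 UMIs against 1929, 1815, 1910 and 1932 in members. Outside the border macrophage cut Fkbp5 had 158, 275, 753 and 1108 CPM. Within it the level was 278, 764, 905 and 1976 CPM, from 18, 13, 45 and 62 UMIs. After thinning, 8 of 27, 6 of 9, 11 of 19 and 16 of 16 border macrophage nuclei had a Fkbp5 UMI (29.6% and 66.7% against 57.9% and 100%), so that fl/fl 2 lay above SynCre 1 by that measure.

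Gm22146 is annotated as an antisense transcript on the plus strand of chr17:28446500-28456457 (GRCm38, as for all positions here), within Fkbp5, which lies on the minus strand at chr17:28399094-28517527. It had 15.4, 23.7, 126 and 87.9 CPM (log2 fold change 2.49 ± 0.27). Whether counting used the strand is not given in the sources used here, so its reads and those of Fkbp5 cannot be told apart. Sult1a1, a sulfotransferase of phenols at chr7:126672865-126676432 on the minus strand, had 24.5, 35.9, 96.3 and 124 CPM, a log2 fold change of 1.87 ± 0.24. It overlaps Sgf29 on the opposite strand. In the thinned nuclei, 2.74%, 3.58%, 9.33% and 14.9% of members had a Sult1a1 UMI, against at most 0.258% of neuron-marker nuclei in any library. In astrocyte-marker nuclei, those with at least 4 of 8 astrocyte genes, the thinned shares were 0.789%, 2.37%, 5.01% and 5.43%, also higher in both libraries labelled SynCre. Gm12248, annotated as protein-coding at chr11:58063552-58093134, rested on 1, 1, 20 and 11 UMIs, a ratio of 25.7 with an exact counting interval of 6.55 to 222.

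Il6st, which encodes gp130, the shared signalling receptor of the interleukin-6 family, lies at chr13:112464070-112510086. It had 251, 272, 118 and 111 CPM on 440, 333, 129 and 83 UMIs, a log2 fold change of -1.19 ± 0.15. Members held 11.6, 14.96, 6.08 and 6.02 times the level of the other kept nuclei, in which it had 20.8, 17.7, 19.1 and 18.5 CPM. The fall was thus seen in members while the level elsewhere stayed within 17.7 to 20.8 CPM. With a library left out the log2 fold change was -1.25 to -1.13, and over all alternatives it was -1.25 to -1.06. In astrocyte-marker nuclei it was 0.16, and in neuron-marker nuclei -0.07. The difference between members and neuron-marker nuclei was -1.22, with an adjusted p of 0.326.

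Cntn5 and Pdzrn4 were more abundant outside the members than in them. Cntn5, an adhesion molecule of neurons, had 358, 401, 154 and 115 CPM (-1.49 ± 0.17) in members and 1270, 1400, 1063 and 982 CPM elsewhere. Pdzrn4, a ubiquitin ligase-like protein, had 86.0, 87.4, 27.5 and 30.6 CPM (-1.58 ± 0.20) in members and 266, 269, 222 and 195 CPM elsewhere. Without the highest Scrublet scores, neither passed the test, with log2 fold changes of -1.10 for Cntn5 (adjusted p = 0.052) and -1.92 for Pdzrn4 (adjusted p = 0.065). Among members with no neuron marker UMI both passed, at -1.63 (adjusted p = 0.0292) and -2.17 (adjusted p = 0.0307). Without the neuronal and oligodendrocyte exclusions neither passed, at -0.70 for Cntn5 (adjusted p = 0.376) and -0.77 for Pdzrn4 (adjusted p = 0.494). Pdzrn4 was also at -1.21 (adjusted p = 0.246) without nuclei with 2 or more markers of other glia and vessels, and at -1.19 (adjusted p = 0.639) when members needed 4 of the 8 genes.

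Summed marker RNA of oligodendrocytes, their precursors and neurons was lower in both libraries labelled SynCre than in both labelled fl/fl. The 11 mature oligodendrocyte markers used outside the rule, of which Mbp held 38.6% of UMIs and none was at 0, summed to 309, 193, 128 and 87.2 CPM in members and to 1359, 962, 410.4 and 322 CPM in the other nuclei. Of the 7 tested, none passed the adjusted test and 6 had an unadjusted p under 0.05 (all lower, against 5.09% of all genes), with a median log2 fold change of -1.31 against 0.00 over all genes. The median was -0.74 without fl/fl 1 and -0.79 with at least 10 counts in every library. It was -1.79 without fl/fl 2, -1.73 without SynCre 1 and -2.00 without the neuronal and oligodendrocyte exclusions. The 12 markers of oligodendrocyte precursors, led by Tnr with 26.2% and none at 0, summed to 694, 371, 334 and 174 CPM (7 tested, none past the adjusted test, 5 lower at an unadjusted p under 0.05, median -1.09). That median was -0.35 without fl/fl 1 and -2.54 without SynCre 1. It was -0.03 without nuclei that carried 2 or more markers of other glia and vessels, and without the Scrublet-high nuclei the precursor sums were 377, 125, 113 and 109 CPM, with fl/fl 2 close to the libraries labelled SynCre. The 15 neuronal markers outside the rule, led by Kcnip4 with 17.9% and none at 0, summed to 11646, 9301, 8408 and 7519 CPM (15 tested, none past the adjusted test, 8 lower at an unadjusted p under 0.05, median -0.48). The Scrublet-high nuclei held much of the neuronal RNA, since without them the sums were 6094, 4771, 4164 and 5079 CPM, with the labels overlapping, and the median was -0.20. It was -0.21 without fl/fl 1. The oligodendrocyte sums stayed at 334, 202, 127 and 93.2 CPM without them. The part of this RNA in the lower calls was not tested beyond these values.

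**Figure D3:**
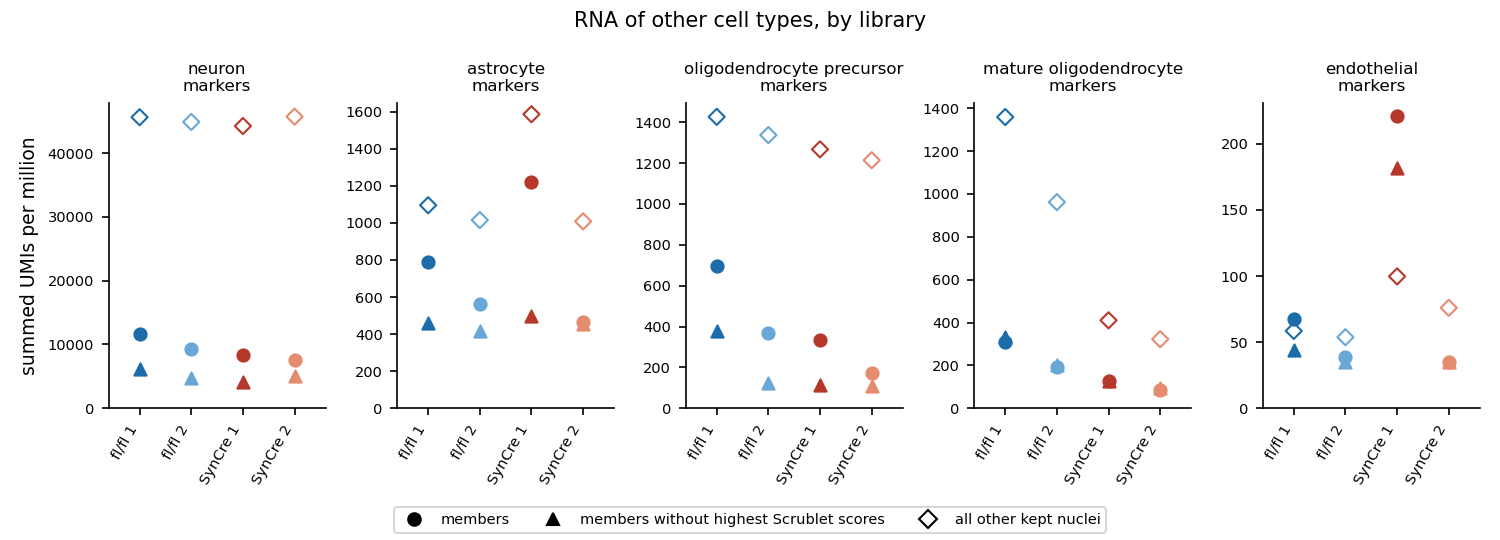
Summed CPM of marker lists of 5 other cell types, each panel with its own axis from 0, in members (circles), members without the highest Scrublet scores (triangles) and all other kept nuclei (diamonds) of each library. Oligodendrocyte markers were at 309 and 193 in the members labelled fl/fl and at 128 and 87.2 in those labelled SynCre, and in the other nuclei they were 1359 and 962 against 410.4 and 322.

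Astrocyte and vessel RNA did not separate the labels. The 14 astrocyte markers, led by Slc1a3 with 29.7%, summed to 787, 563, 1222 and 464 CPM, and the 11 endothelial markers, led by Pecam1 with 30.2%, to 67.5, 38.9, 221 and 34.9 CPM. SynCre 1 stood highest in both. Mural and fibroblast markers, led by Ranbp3l with 28.8% and with Col1a2 at 0, summed to 47.7, 28.6, 79.1 and 24.1 CPM. No tested member of these 3 lists had an unadjusted p under 0.05 (11, 2 and 1 tested). The monocyte and neutrophil list had 3 genes tested and the lymphocyte list 2, with none past the adjusted test and 1 lower at an unadjusted p under 0.05 in each (medians 0.66 and -0.50). Over all genes tested, 3.44% were higher and 5.09% lower at that p.

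Fkbp5 and Sult1a1 belonged to a list of glucocorticoid-responsive genes, of which 15 were tested and 11 had a log2 fold change above 0 and 4 below. Of the 18 listed, 2 rose past the adjusted threshold (Fkbp5 and Sult1a1), and 9 were higher and none lower at an unadjusted p under 0.05, where 3.44% of all genes were higher. The median log2 fold change was 0.78, and 10 of the 15 were above in both libraries labelled SynCre, against 19.8% of all genes, and 1 was below in both, against 19.6%. The list holds the called genes and was chosen with earlier results of these data known, so these counts are a description. Ddit4, an inhibitor of mTORC1 that also belongs to the ATF4 list, had 2.85, 4.90, 30.3 and 75.9 CPM on 5, 6, 33 and 57 UMIs (3.75 ± 0.55, adjusted p = 0.0717). Tsc22d3, the glucocorticoid-induced leucine zipper, had 33.0, 27.8, 81.6 and 133 CPM (1.79 ± 0.26, adjusted p = 0.0717). For both genes the libraries labelled SynCre lay above, and SynCre 2 was the higher of the pair. Ddit4 passed the threshold in 6 of 17 alternatives and Tsc22d3 in 5 of 18, DESeq2 and the replicate block among them for both.

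Differences of the same sign were measured in 5 more genes of the list, none past the adjusted test. Hif3a, a hypoxia-inducible factor subunit, had 4.56, 2.45, 23.8 and 19.97 CPM (adjusted p = 0.103). Mt1, a metallothionein, had 75.8, 67.0, 125 and 121 CPM (adjusted p = 0.186). The clock gene Per1 had 18.2, 34.3, 47.7 and 59.9 CPM (adjusted p = 0.395). Klf9, a transcription factor, had 26.8, 32.7, 45.9 and 42.6 CPM (adjusted p = 0.546), while Zbtb16, another, had 38.7, 50.6, 51.4 and 178 CPM (adjusted p = 0.470) and so was high in SynCre 2 alone. Nr3c1 itself, the receptor, had 318, 262, 250 and 217 CPM, a log2 fold change of -0.31 ± 0.15 with an adjusted p of 0.632. Sgk1, a kinase often used as a readout of steroid action, had 112, 149, 122 and 82.6 CPM, with the labels overlapping. The summed level of the 18 genes was 998, 1164, 1848 and 2451 CPM in members and 636, 661, 845 and 894 CPM in the other nuclei, and Fkbp5 gave 32.8% of the UMIs in members.

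**Figure D4:**
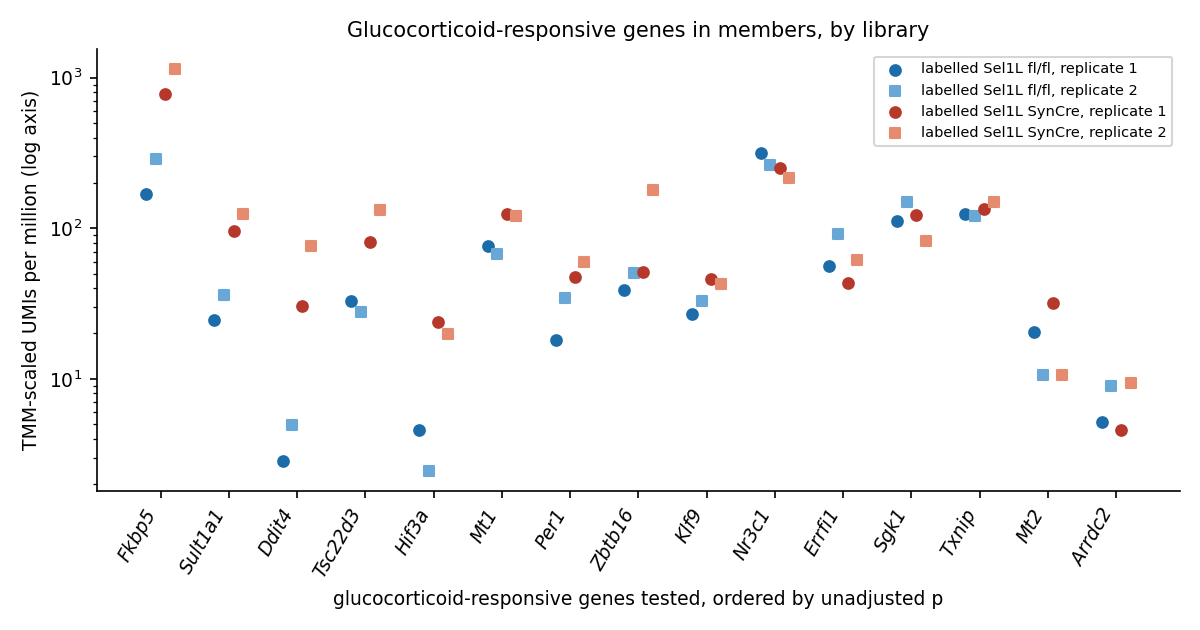
The 15 tested glucocorticoid-responsive genes in members, ordered by unadjusted p, in TMM-scaled CPM on a log axis, with 1 symbol for each library (colour and shape). In the first 9 genes, from Fkbp5 to Klf9, both libraries labelled SynCre lie above both labelled fl/fl, as in Fkbp5 with 775 and 1136 over 169 and 290.

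In the astrocyte-marker nuclei of the same libraries, Fkbp5 had 28.6, 33.9, 174 and 278 CPM, a log2 fold change of 2.86, and in neuron-marker nuclei 40.2, 36.6, 57.7 and 77.3 CPM, a log2 fold change of 0.81. The difference of the effect in members from that in neuron-marker nuclei was 1.19 on the log2 scale (adjusted p = 0.581), and from that in astrocyte-marker nuclei -0.73 (adjusted p = 0.635). None of the 18 listed genes differed past the adjusted threshold in either comparison of effects. The 3 classes of nuclei came from the same 4 libraries, so an effect shared by them is not a repeat in other mice.

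The promoters of these genes were searched for the palindromic letters GNACANNNTGTNC, a form of the site bound by the glucocorticoid receptor, since 10 of them were higher in both libraries labelled SynCre. Windows of 250 bases before to 50 bases after each start were taken from RefSeq (GRCm38.p6), and a match on one strand is also one on the other. Of 32851 windows 0.475% held a match. Windows were given for 16 of the 18 listed genes, and 3 of their 26 windows (11.5%), in 3 genes, held a match. These genes were listed as responsive to glucocorticoids, so that share says nothing of the difference between the labels. Each match is shown here in capitals within 30 bases of the gene's strand.
Mt1, chr8:94178987-94179016, plus strand, 94 bases before the start: cactatagGGACATGATGTTCcacacgtca
Sgk1, chr10:21993694-21993723, plus strand, 188 bases before 1 of its starts: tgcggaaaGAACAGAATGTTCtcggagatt
Txnip, chr3:96557777-96557806, plus strand, 172 bases before the start: cgctaggaGCACACCGTGTCCacgcgcccc
Of these genes Mt1 and Txnip were higher in both libraries labelled SynCre, and Sgk1 overlapped. Txnip, a binder of thioredoxin, had 125, 121, 135 and 150 CPM (0.21 ± 0.15). The windows of Fkbp5, Sult1a1, Ddit4, Tsc22d3 and Hif3a did not hold these letters, which says nothing of sites elsewhere.

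No homeostatic microglial gene passed the test. Of 20 tested none passed the adjusted test, 4 were lower and none higher at an unadjusted p under 0.05 (5.09% of all genes were lower), and the median log2 fold change was -0.06. That median was -0.12 to 0.02 with a library left out, above 0 without fl/fl 2. P2ry13, a purinergic receptor, had 111, 114, 76.1 and 58.6 CPM (-0.73 ± 0.18, adjusted p = 0.290), and Olfml3, a secreted matrix protein, had 86.6, 85.7, 63.3 and 37.3 CPM (-0.75 ± 0.24, adjusted p = 0.421). Fcrls, an Fc receptor-like gene, had 453, 390, 342 and 294 CPM (-0.41 ± 0.14, adjusted p = 0.484). In each the libraries labelled SynCre were the lower, while Tmem119 had 101, 125, 121 and 150 CPM and C1qa, a complement subunit, 346, 375, 351 and 349 CPM, neither past the test. Among the rule's own genes, given without a test, P2ry12 had 1029, 1260, 841 and 861 CPM, Siglech 827, 1006, 783 and 691 CPM, and Inpp5d 1576, 1755, 1878 and 2242 CPM. The other 5 rule markers lay between 659 and 1086 CPM in every library.

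Genes of disease-associated activation did not rise as a list. Of 21 tested none passed the adjusted test, 2 were higher and 5 lower at an unadjusted p under 0.05 (3.44% and 5.09% of all genes), and the median was -0.27. That median was -0.22 to -0.17 with a library left out and -0.14 without the neuronal and oligodendrocyte exclusions. Trem2, the lipid-sensing receptor of the activated state, had 177, 189, 123 and 121 CPM (-0.58 ± 0.15, adjusted p = 0.290), and Cd9, a tetraspanin, had 126, 152, 65.1 and 51.9 CPM (-1.23 ± 0.19, adjusted p = 0.0865). Cd9 passed in 6 of 18 alternatives, among them the replicate block and the fit without the highest Scrublet scores (adjusted p = 0.0192). Apoe had 365, 248, 608 and 386 CPM (0.70 ± 0.23, adjusted p = 0.448), and passed in 2 of 18 alternatives. In the nuclei outside the border macrophage cut fl/fl 1 and SynCre 2 were close for Apoe, at 219 and 223 CPM. In the other kept nuclei, where astrocytes express it, Apoe had 73.2, 82.1, 185 and 96.6 CPM. Arhgap24 and Colec12 completed the 4 genes of smallest p, with log2 fold changes of -0.67 and 1.49 and an adjusted p of 0.355 each. Colec12 had 1136 CPM in border macrophage nuclei and 8.16 CPM in the other members. In those other members it had 1.14, 0, 3.76 and 46.2 CPM, and so was high in SynCre 2 alone.

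No interferon-response gene passed the adjusted test. Of 15 tested 5 were higher and none lower at an unadjusted p under 0.05 (3.44% of all genes were higher), with a median of 0.40. The median was 0.25 without SynCre 1 and 0.27 without the Scrublet-high nuclei. Without those nuclei the 28 listed genes summed to 707, 818, 1111 and 789 CPM, so that SynCre 2 lay below fl/fl 2. Sp100, a nuclear body protein, had 21.6, 31.9, 70.6 and 41.3 CPM (1.12 ± 0.31, adjusted p = 0.355), and Parp14 had 99.7, 95.6, 146 and 117 CPM (0.44 ± 0.17, adjusted p = 0.522). SynCre 1, which held 18 of the 25 nuclei of the interferon cluster, was the highest library for both genes, for Xaf1 (27.5 CPM against 10.3, 11.4 and 16.0) and for Rtp4 (21.1 CPM against 3.99, 10.6 and 13.3). Ifi44, which leads that cluster, had 7.41, 22.9, 31.2 and 0 CPM, so that the labels overlapped. The part of these few nuclei in the list was not tested. Antigen presentation genes had 12 tested with none under an unadjusted p of 0.05 (median 0.29), and H2-D1, a class I molecule, had 37.0, 23.7, 53.2 and 39.9 CPM (adjusted p = 0.607).

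Border macrophage genes leaned higher in the libraries labelled SynCre, where the share of these nuclei was also higher. Of 12 tested none passed the adjusted test, and 5 were higher and none lower at an unadjusted p under 0.05 (3.44% of all genes were higher), with a median of 0.70. Cd163 had 20.5, 18.8, 48.6 and 65.2 CPM (1.51 ± 0.26, adjusted p = 0.10). Stab1, an endocytic receptor that microglia also express, had 220, 191, 281 and 377 CPM (0.67 ± 0.17, adjusted p = 0.290). Mrc1 had 179, 60.4, 159 and 208 CPM and F13a1 166, 71.9, 159 and 194 CPM, so that fl/fl 1 lay above SynCre 1 in both and fl/fl 2 was the low library. The median of the list was 0.16 without fl/fl 2 and 1.43 without fl/fl 1. Without the border macrophage nuclei the median was 0.21, a removal that takes out most RNA of the listed genes that chose those nuclei. In these summed counts, more border macrophage nuclei and more RNA of the gene in each cannot be told apart. Within the border macrophage nuclei, summed over 27, 9, 19 and 16 nuclei, listed genes outside the cut had no common direction, with Dab2 at 3508, 3114, 1910 and 2104 CPM and Colec12 at 989, 1175, 1045 and 1562 CPM.

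Receptors of phagocytosis and signalling gave mixed values, with none past the adjusted test. Among 29 complement and phagocytic receptor genes 5 were higher and 1 lower at an unadjusted p under 0.05 (median -0.03). Over all genes tested, 3.44% were higher and 5.09% lower by that measure. Fcgr3, an activating Fc receptor, had 99.7, 118, 151 and 192 CPM (0.65 ± 0.18, adjusted p = 0.33), Msr1, a scavenger receptor, had 10.3, 6.53, 19.3 and 28.0 CPM (adjusted p = 0.356), and Gas6, a ligand of the receptors MERTK and AXL, had 75.2, 93.9, 59.6 and 39.9 CPM (adjusted p = 0.417). Of 22 inflammatory signalling genes 1 was higher and 3 lower (median 0.01). Nfkbiz, an atypical IkappaB protein that NF-kappaB and gp130 signalling are known to induce, had 43.9, 44.1, 18.3 and 16.0 CPM on 77, 54, 20 and 12 UMIs (-1.34 ± 0.26, adjusted p = 0.166). Tlr7 had 143, 175, 211 and 229 CPM (adjusted p = 0.441), while Il1a had 45.6, 59.6, 25.7 and 41.3 CPM (adjusted p = 0.555) and Relb 23.4, 26.1, 15.6 and 10.7 CPM (adjusted p = 0.522). Of 20 genes of CSF1 and TGF-beta signalling none was higher and 3 were lower (median -0.15). Tgfbr2, the type II receptor of TGF-beta, had 520, 521, 357 and 333 CPM (-0.59 ± 0.12, adjusted p = 0.184), Nrros, which presents TGF-beta at the microglial surface, 339, 223, 204 and 188 CPM (adjusted p = 0.512), and Smad3 229, 203, 177 and 154 CPM (adjusted p = 0.531).

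The remaining microglial lists also had no gene past the adjusted test. The 16 purinergic and chemosensory genes had 3 higher and 2 lower at an unadjusted p under 0.05 (median 0.18), against 3.44% and 5.09% of all genes, with Cmklr1, the chemerin receptor, at 70.1, 61.3, 94.5 and 105 CPM (adjusted p = 0.396). The 21 lipid and cholesterol genes had 2 higher and none lower (median 0.01), and the 27 lysosomal genes 2 higher and none lower (median -0.06). Ctsh, a cathepsin, had 175, 176, 209 and 273 CPM (adjusted p = 0.491). Of 12 immediate early genes 1 was higher (median 0.02), Nr4a1 with 9.12, 7.35, 23.8 and 30.6 CPM (1.67 ± 0.35, adjusted p = 0.186). Only 7 of 27 cell division genes were abundant enough to be tested, with none under an unadjusted p of 0.05 (median 0.27).

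**Figure D5:**
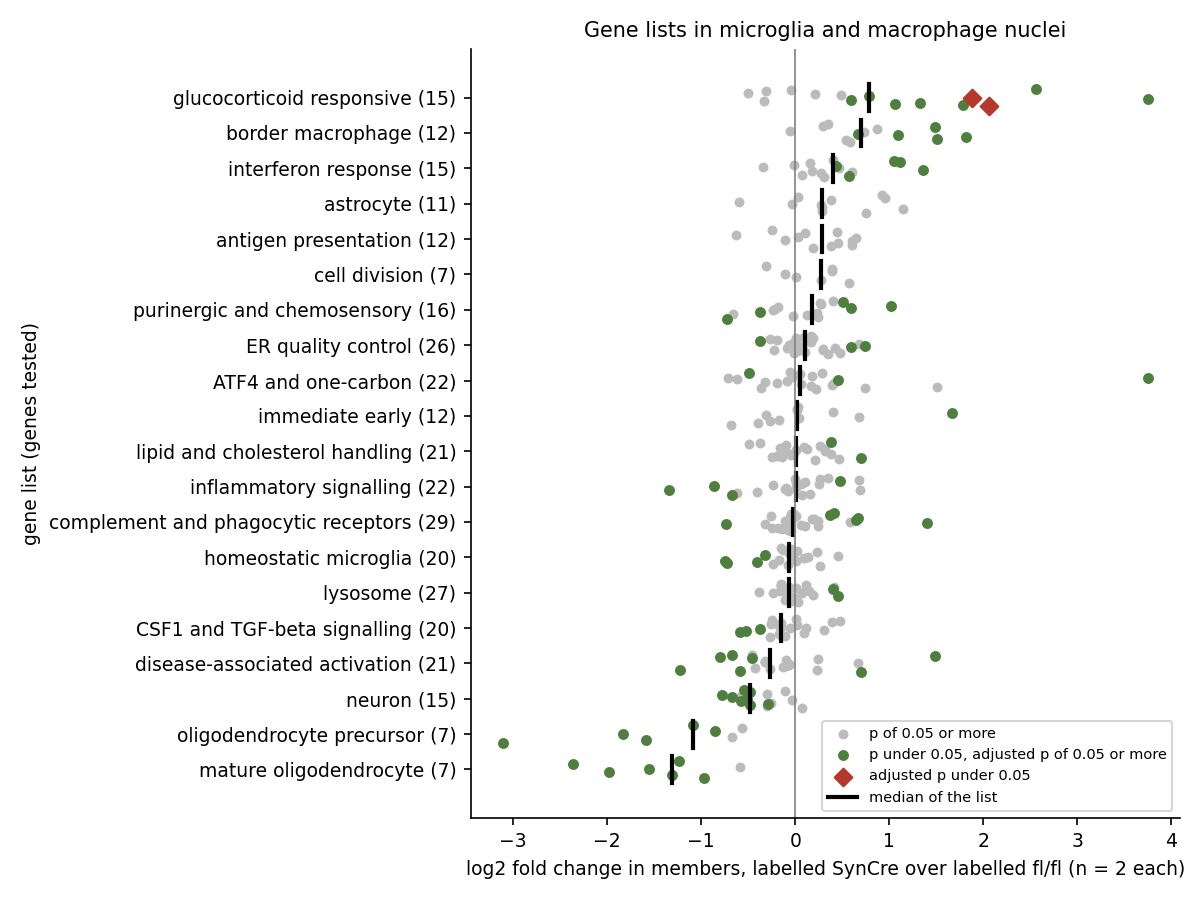
Log2 fold changes in members, labelled SynCre over labelled fl/fl (n = 2 each), for the 20 gene lists with at least 5 tested genes outside the rule; points are genes, coloured by their test, and black bars are list medians. The glucocorticoid-responsive list has the highest median (0.78) and the mature oligodendrocyte list the lowest (-1.31).

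Further genes next in order of p were named by the rule for named genes and did not pass the adjusted test. Vcam1, an adhesion molecule, had 4.56, 5.72, 28.4 and 26.6 CPM on 8, 7, 31 and 20 UMIs (2.43 ± 0.38, adjusted p = 0.0865). Without the border macrophage nuclei Vcam1 no longer passed the count filter, so its change in the other members was not tested. Slfn2, a Schlafen gene that members held at 69.6 times or more the level of other nuclei, had 11.96, 13.9, 45.9 and 39.9 CPM (1.74 ± 0.28, adjusted p = 0.0956). Mlxip, a glucose-sensing transcription factor, had 120, 92.3, 213 and 216 CPM (1.01 ± 0.17, adjusted p = 0.0962). In all 3 the labels did not overlap. On the lower side stood Cntnap5a, Tmeff2, St18 and Lrrtm4, with log2 fold changes of -1.20, -1.42, -2.37 and -0.78, each held by members at no more than 0.274 times the level of the other nuclei. St18 is also on the mature oligodendrocyte list and Lrrtm4 on the neuronal list.

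The lists for the pathways that the study followed in neurons had medians near 0 in members. Of 26 ER quality control genes none passed the adjusted test, and 2 were higher and 1 lower at an unadjusted p under 0.05 (3.44% and 5.09% of all genes), with a median of 0.10 (-0.03 without SynCre 1). Manf, a protein secreted under ER stress, had 55.8, 62.1, 101 and 95.9 CPM (0.74 ± 0.18, adjusted p = 0.250), Calr, the chaperone calreticulin, 45.0, 41.7, 66.9 and 63.9 CPM (0.59 ± 0.20, adjusted p = 0.445), and Edem1, a mannosidase-like degradation factor, 138, 127, 103 and 101 CPM (-0.38 ± 0.16, adjusted p = 0.554). Of 22 genes of the ATF4 and one-carbon list none passed, with 2 higher and 1 lower (median 0.05, and -0.05 without fl/fl 1 or SynCre 1). The higher ones were Ddit4, at 3.75 as given above, and Cebpg, a partner of ATF4 with 134, 144, 187 and 194 CPM (0.46 ± 0.14, adjusted p = 0.415), and the lower one was Fam129a with 53.0, 55.5, 39.4 and 37.3 CPM (-0.49 ± 0.21, adjusted p = 0.565).

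In neuron-marker nuclei on their own, 29 of 19785 genes (0.147%) differed between the labels, and in astrocyte-marker nuclei 84 of 11656 (0.721%). Whether the effect in members differed from that in neuron-marker nuclei was tested in a model over both classes with each library as a term. None of 19736 genes passed the adjusted threshold in edgeR (1381, or 7.0%, at an unadjusted p under 0.05), while DESeq2 called 14, all with the effect lower in members. Of the 29 tested ER quality control genes 14 had an effect lower in members and none higher at an unadjusted p under 0.05, and of the 33 of the ATF4 and one-carbon list 10 lower and 1 higher. Herpud1, an ER membrane protein of the degradation pathway, had 75.2, 70.2, 73.4 and 65.2 CPM in members and 18.1, 19.8, 50.7 and 40.9 CPM in neuron-marker nuclei, a difference of effects of -1.45 (adjusted p = 0.271). Creb3l2, an ER-bound transcription factor, had 75.2, 88.2, 89.9 and 65.2 CPM in members and 10.3, 9.26, 25.3 and 21.8 CPM in neuron-marker nuclei (-1.43, adjusted p = 0.326). Fam129a had 1.87, 2.04, 11.2 and 6.82 CPM in neuron-marker nuclei (-2.81, adjusted p = 0.195), Nupr1, a stress-induced nuclear protein, 1.03, 0.866, 5.33 and 2.60 CPM there (-2.81, adjusted p = 0.358), and Pdia3, a disulfide isomerase, 39.3, 32.4, 62.9 and 53.6 CPM (-1.03, adjusted p = 0.385). In members Nupr1 had 27.3, 14.7, 14.7 and 13.3 CPM and Pdia3 92.3, 83.3, 82.5 and 66.6 CPM.

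Against astrocyte-marker nuclei 2 of 13095 genes passed (0.0153%; 927, or 7.08%, at an unadjusted p under 0.05), both with the effect lower in members. Zfhx3, a homeobox transcription factor, had 1766, 1793, 1760 and 1930 CPM in members and 81.9, 85.3, 390 and 528 CPM in astrocyte-marker nuclei (CPM by UMIs alone), a difference of effects of -2.42 with an adjusted p of 0.033. Phyhd1 had 370, 441, 464 and 455 CPM in members and 32.2, 51.0, 199 and 214 CPM in astrocyte-marker nuclei (-2.19, adjusted p = 0.035). In members neither gene differed between the labels, with log2 fold changes of 0.01 and 0.14 and adjusted p of 0.992 and 0.811. Without fl/fl 1, fl/fl 2 or SynCre 2 no gene passed, and without SynCre 1 a single gene did. Of the study's pathways Hspa5, the ER chaperone BiP, had 58.1, 61.3, 94.5 and 54.6 CPM in members and 38.4, 40.4, 96.7 and 69.03 CPM in astrocyte-marker nuclei (-0.77, adjusted p = 0.635), with the labels overlapping in members.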

How the data were processed

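Nuclei of cortex and hippocampus were profiled with the 10x Genomics 3′ v3 kit, 1 library per mouse. The deposited matrices hold whole-number UMI counts per gene and nucleus, made by the authors with Cell Ranger 6.1.0 on GRCm38 per the labels; whether introns or strand were used in counting is not given in the sources used here. Of 36619 deposited nuclei (12599, 8481, 8173 and 7366; library totals 122870443, 76617523, 75227337 and 74082610 UMIs), 36094 passed the filters. Counts of the members were summed per library and tested with edgeR 4.0.16 (TMM, filterByExpr, glmQLFit with legacy = FALSE, glmQLFTest, Benjamini-Hochberg over all genes tested). Differences of effects between classes of nuclei were tested in the same way with library, class and their interaction. The members, the 24 gene lists and the comparison classes were chosen with earlier results of these data known. With 2 libraries a label, edgeR's p-values set the difference between labels against the spread within them, moderated over genes. Each label held a male and a female library, so that spread includes sex.

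Named genes were, leaving out rule genes, Xist and Y-linked genes, the 10 largest changes in each direction past an adjusted p of 0.05 with 20 or more counts, or all of them and the 5 next by p. To these were added up to 4 genes of smallest p from each list, fixed control and marker genes, and up to 5 pathway genes from each comparison of effects. Hif3a, Mt1, Per1, Zbtb16, Klf9, Nr3c1, Sgk1, Txnip, Ifi44 and the border macrophage genes Dab2 and Ms4a4a were named after their values were seen. Doublets were kept in the main result and removed by Scrublet score in an alternative. In simulated counts with the members' means and library sizes (11475 genes tested), 92 of 100 genes changed by 2 on the log2 scale and 44 of 100 changed by 1 were recovered, with 9 false calls. The changed genes had 100 or more counts in total, and every gene was given the same spread with no effect of sex. Recovery was thus not measured for genes of fewer counts, such as Gm12248, or at the spread of these libraries. Other alternatives were DESeq2 1.42.0, RLE size factors, other filters and prior counts, a replicate block, thinning, other member rules and leaving out each library. A few listed or called genes are not reported here and were left out of the lists, though they stayed in the fit and its counts. GENCODE vM21 gave positions. Clusters were made with scanpy 1.11.5 (1500 variable genes, 15 components, 20 neighbours, Leiden resolution 0.5).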

Additional observations from a re-analysis of the deposited data

Results flagged for a closer look

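In the comparison of effects, Zfhx3 and Phyhd1 differed between members and astrocyte-marker nuclei, by -2.42 and -2.19 on the log2 scale in edgeR's test of the difference itself. Both genes were several times higher in astrocyte-marker nuclei labelled SynCre than in those labelled fl/fl and were flat in members. Cre RNA was found where the label gives none, with 362 UMIs in the neuron-marker nuclei of fl/fl 1, against 0 in fl/fl 2.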

How the results depend on the processing

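With 2 libraries a label, no share could pass the exact permutation test. The count of 8 genes was 15 in DESeq2 (7 of the 8 among them), 16 with at least 10 counts in every library (7 shared), 5 with no filter beyond 1 count, 4 after thinning to the smallest total, 0 with 4 of 8 markers and 0 to 412 with a library left out, where the lone library of a label is assumed to vary like the other label. Without the neuronal and oligodendrocyte exclusions, chosen after seeing the data, it was 8, but only 3 were shared. With the replicate number as a block, which left 1 residual degree of freedom, it was 160 (50 higher, 110 lower, all 8 among them). Ddit4, Tsc22d3, Cd9 and Apoe then passed (adjusted p = 0.000157, 0.00133, 0.00447 and 0.0111), as did Vcam1, Slfn2, Mlxip, Cntnap5a, Tmeff2, St18 and Lrrtm4. The numbers mark no shared litter or day in the labels, but by Xist and Ddx3y each number was 1 sex in both labels, so the block is also one on sex. Deviations of same-numbered libraries correlated at 0.16 over 6963 genes. The 2 genes against astrocyte-marker nuclei became 0 to 1 with a library left out, and the 0 genes against neuron-marker nuclei became 11 with 10 counts in every pseudobulk and 14 in DESeq2. The difference in the members' share, -1.31 percentage points, was -2.00 of nuclei with fewer than 2 neuron marker UMIs and -0.984 with 2 of 8 markers. It was -0.423 when thinned to 2000 UMIs, -1.48 when thinned to 1000 UMIs and -1.94 to -0.679 with a library left out. Under alternatives chosen after seeing the data it was -2.15 without the exclusions and -8.20 of nuclei free of neuronal and oligodendrocyte UMIs. The border macrophage difference of 1.90 was 3.42 with 1 of 6 markers and 0.95 to 2.86 with a library left out. It was 1.27 when thinned to 2000 UMIs and 1.73 when thinned to 1000 UMIs. Sel1l, at 0.03, was -0.12 without the highest Scrublet scores, -0.0241 with no neuron marker UMI, -0.0045 without nuclei with markers of other glia and vessels, and -0.0857 to 0.1332 with a library left out. C1qa, at -0.04, was -0.1015 to 0.0108 with a library left out, above 0 without fl/fl 2. The causes were not tested. None of these alternatives reversed any of the 8 called genes.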
